A study of Mus musculus with 22 samples.

Results

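The stretches of the mouse autosomes in which cerebellum kept the smallest share of the 5-hydroxymethylcytosine (5hmC) found in cortex and olfactory bulb were described at 1 Mb resolution. For each autosomal bin of 1 Mb the mean 5hmC level in cerebellum was divided by the mean of the cortex and olfactory bulb levels, and this quotient is called the 5hmC ratio below. Only bins in which cortex and olfactory bulb both reached a mean level of 0.10 were eligible, which left 2101 of 2470 autosomal bins. The 200 bins with the lowest ratios were selected on these measured 5hmC levels, out of 2641 bins in all. Their 5hmC levels are given as a description with no test. The 5mC levels came from other libraries and another assay that the choice did not use.

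All tissues came from untreated female C57BL/6 mice at 8 weeks of age, and the replicates of a tissue came from independent mice. Cortex was the whole cerebral cortex without the hippocampus, and olfactory bulb and cerebellum were taken whole. TET-assisted bisulfite sequencing (TAB-seq), which reads 5hmC alone, was deposited for 3 libraries of each of the 3 tissues. Oxidative bisulfite sequencing (oxBS-seq), which reads 5-methylcytosine (5mC) alone, was deposited for 3 cortex, 2 olfactory bulb and 2 cerebellum libraries as levels in bins of 100 kb. Both are given as fractions from 0 to 1, with no read counts, so the depth behind a level is unknown and its error is the SD between libraries. No transcript levels were used, so the tissue labels were not checked against marker genes. In such bulk tissue, fewer cells carrying a mark and less of the mark per cell cannot be told apart.

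5hmC is made from 5mC by the TET dioxygenases and is far more abundant in neurons than in most other cells, where it lies mainly in the bodies of genes. A given cytosine carries one mark or the other, so the level of 5mC and the level of 5hmC in a region share a ceiling. Cerebellum is dominated by granule neurons, small cells that are packed very densely, whereas cortex holds large excitatory neurons, interneurons and glia, and the olfactory bulb holds many interneurons that are born throughout life.

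The following stretches of genome sequence show what these bins are made of. They are shown because the level of a bin is read at CpG sites, which were sparse here, and each CpG is in capitals. All are the plus strand of GRCm38, the same assembly as mm10, 300 bases long, outside exons and free of masked repeats. The first lay nearest to the middle of the bin with the lowest ratio, in an intron of Nkain2, at chr10:32498301-32498600. The second lay nearest to the middle of the lowest-ratio bin without a protein-coding gene, at chr11:15506701-15507000. The last was the stretch richest in CpG of the 100 kb bin with the largest gain of 5mC, in an intron of Zeb2, at chr2:45084301-45084600.
Nkain2 bin: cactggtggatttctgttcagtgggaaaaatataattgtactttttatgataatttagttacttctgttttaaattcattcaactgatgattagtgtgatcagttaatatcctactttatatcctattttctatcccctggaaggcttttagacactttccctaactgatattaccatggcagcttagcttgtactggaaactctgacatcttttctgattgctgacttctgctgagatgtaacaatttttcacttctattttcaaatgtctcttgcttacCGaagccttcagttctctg
Gene-free bin: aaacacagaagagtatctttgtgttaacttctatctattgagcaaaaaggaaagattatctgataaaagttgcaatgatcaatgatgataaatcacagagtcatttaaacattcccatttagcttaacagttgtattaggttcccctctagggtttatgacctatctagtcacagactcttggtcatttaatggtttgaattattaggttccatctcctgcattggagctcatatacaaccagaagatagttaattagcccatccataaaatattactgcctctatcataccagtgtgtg
Zeb2 bin: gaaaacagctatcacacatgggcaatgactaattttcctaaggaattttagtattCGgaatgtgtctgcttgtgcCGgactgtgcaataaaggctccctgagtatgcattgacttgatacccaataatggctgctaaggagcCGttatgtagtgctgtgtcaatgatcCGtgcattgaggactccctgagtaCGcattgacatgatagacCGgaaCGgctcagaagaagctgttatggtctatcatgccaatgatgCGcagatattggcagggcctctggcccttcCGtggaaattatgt

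The Nkain2 stretch held 1 CpG, the gene-free stretch held 0, and the Zeb2 stretch held 9.

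Over the 200 bins the mean 5hmC level was 0.153, 0.166 and 0.148 in the 3 cortex libraries, 0.139, 0.148 and 0.141 in the olfactory bulb libraries, and 0.0505, 0.0512 and 0.0529 in the cerebellum libraries. Cerebellum was thus low in every library, at 0.0516 ± 0.00124 (SD, n = 3) against 0.156 ± 0.00941 in cortex and 0.143 ± 0.00446 in olfactory bulb. In the other 1901 eligible bins cerebellum had 0.113 ± 0.00204, cortex 0.183 ± 0.0104 and olfactory bulb 0.165 ± 0.00459. All 3 tissues were therefore lower in the 200 bins than in the rest, and cerebellum by far the most. Single bins ran from 0.0300 to 0.0831 in cerebellum, from 0.101 to 0.225 in cortex and from 0.101 to 0.244 in olfactory bulb. In all 200 bins every cerebellum library was below every cortex and olfactory bulb library, which the rule favours and which was also true of 92.5% of the 2413 autosomal bins with a level above 0.

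**Figure D1:**
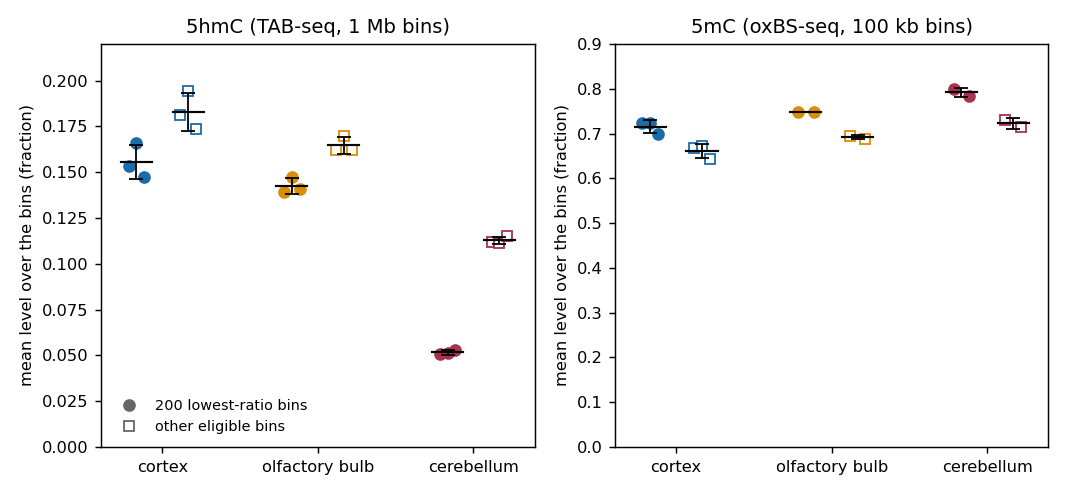
Mean 5hmC level (left, 1 Mb bins) and mean 5mC level (right, 100 kb bins) as fractions, with 1 point per library, a line for the mean and bars for the SD between libraries; filled circles are the 200 lowest-ratio bins and open squares the other eligible bins. In the 200 bins cerebellum sits at 0.0516 for 5hmC and at 0.792 for 5mC, the lowest and the highest of the 3 tissues.

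The ratio ran from 0.229 to 0.389 with a median of 0.350, against a median of 0.632 in the other eligible bins and a highest value of 1.43. The end of the ranking had no gap. The last bins taken had ratios of 0.3888, 0.3888 and 0.3894, and the first bins left out had 0.3895, 0.3896 and 0.3896. Pcdh17, a protocadherin gene, lay in the last bin taken, and Mipol1 lay in the first bin left out.

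The lowest ratio, 0.229, belonged to chr10:32000001-33000000, of which 89.0% is covered by Nkain2, a gene of 1201 kb that encodes a protein interacting with the sodium pump. Its 5hmC level was 0.191, 0.207 and 0.180 in the cortex libraries, 0.165, 0.173 and 0.170 in the olfactory bulb libraries and 0.0404, 0.0409 and 0.0434 in the cerebellum libraries. The groups lay far apart, and the 5mC of the same bin went the other way. It was 0.677, 0.687 and 0.667 in cortex, 0.727 and 0.725 in olfactory bulb and 0.809 and 0.798 in cerebellum. The next bins in the ranking were poor in genes. The second, with a ratio of 0.238, held only Pom121l12 with 0.104% of its bases, and the third, with 0.245, held Neto1 and Cbln2, which encode partners of glutamate receptors. The fifth, with 0.275, lay in Grm8, a presynaptic metabotropic glutamate receptor. There olfactory bulb was above cortex, with 5hmC of 0.186, 0.194 and 0.182 against 0.151, 0.169 and 0.134, while cerebellum had 0.0458, 0.0450 and 0.0487. The bins ranked 6 to 10 overlapped no protein-coding gene.

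The mean 5hmC level was lower in olfactory bulb than in cortex in most of the 200 bins. The olfactory bulb level was between 0.641 and 1.45 times the cortex level, with a median of 0.899, and it was above the cortex level in 40 bins. Every olfactory bulb library was below every cortex library in 104 bins (52.0%), where the background over autosomal bins was 67.2%. The opposite held in 13 bins (6.5%), where the background was 3.48%. Taken within the pairs of libraries with the same number, which deviated together for these tissues, olfactory bulb was below cortex in all 3 pairs in 134 bins (67.0%, background 81.1%) and above it in 30 (15.0%, background 7.46%), a looser condition than no overlap. Among the genes of the lists, Robo2, Tenm3, Meis2, Epha6, Epha5, Grm8, Kcna4, Slc27a6, Pcdh10 and Lrrtm4 lay in bins with a higher mean 5hmC level in olfactory bulb than in cortex, by less than the SD between libraries in some of them. The bin at the midpoint of Robo2, an axon guidance receptor, had 0.244 ± 0.00463 in olfactory bulb, 0.215 ± 0.0124 in cortex and 0.0831 ± 0.000985 in cerebellum. The bin at Lingo2, a leucine-rich repeat protein of neurons, had the reverse order of these tissues, with 0.130 ± 0.00559 in olfactory bulb, 0.189 ± 0.00902 in cortex and 0.0517 ± 0.000712 in cerebellum.

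The 200 bins were poor in genes. Of the 200, 55 (27.5%) overlapped no protein-coding gene, against 4.10% of the other eligible bins, and 79 (39.5%) had under 5% of their bases in such genes, against 6.63%. The median cover by protein-coding genes was 12.4% against 49.3% in the other eligible bins, and the median number of gene midpoints per bin was 1 against 6. Gene-dense bins were rare, since only 2 of the 200 held 10 or more gene midpoints. The bins held more genes of extreme length than their share of all genes. The 350 protein-coding genes with their midpoint in the bins had a median length of 32.0 kb against 20.4 kb for the 17243 genes of the other eligible bins, and 32 of them (9.14%) were longer than 500 kb against 1.01%. Of all 207 eligible genes longer than 500 kb, 15.5% lay in the 200 bins, where 1.99% of all eligible protein-coding genes did. Counted by bin the contrast was smaller or turned. A gene of over 500 kb overlapped 48 bins (24.0%) against 16.7% of the other eligible bins and 22.0% of the 200 bins with the highest ratios, and the longest protein-coding gene of a bin had a median of 149 kb against 207 kb in the other eligible bins. Only 34 bins (17.0%) were at least 50% genic against 49.1%.

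The bins also had little CpG, with medians of 5.04 CpG per kb in the gene-free ones and 5.67 in those with at least 50% cover. Over all 200 the median was 5.40 CpG per kb against 9.05 in the other eligible bins, the median GC content was 38.1% against 42.6%, and the median share of bases in masked repeats was 37.6% against 30.0%. Ranked by CpG density, the lowest 526 eligible bins (3.76 to 6.50 per kb) held 158 of the 200, and the highest 525 held 1. That bin, chr8:48000001-49000000, lay in Tenm3 and had 13.1 CpG per kb. Across the 2101 eligible bins the ratio was higher where gene cover (Pearson r = 0.453, Spearman rho = 0.461) and CpG density (r = 0.487, rho = 0.525) were higher. Neighbouring bins share their base composition and all bins share the same libraries, so these correlations are descriptions. How CpG sites were combined into the 5hmC level of a bin is not given, and how many sites stood behind each level is not known.

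**Figure D2:**
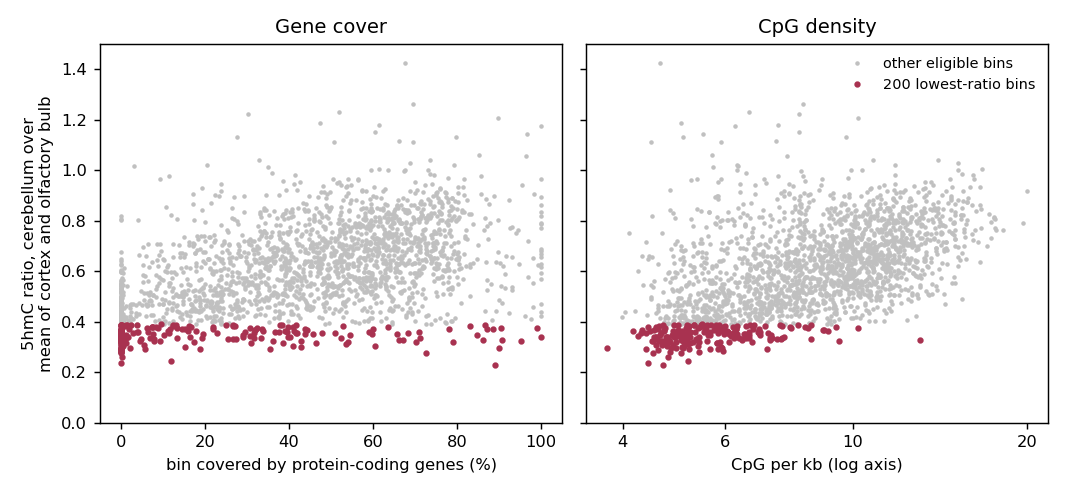
5hmC ratio of each of the 2101 eligible bins against the share of the bin covered by protein-coding genes (left, percent) and against CpG per kb (right, log axis), with the 200 lowest-ratio bins in red and the others in grey. The red points crowd at low cover, where 55 of them stand at 0, and at low CpG density, but 6 stand at 90% cover or more.

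The more genic of the 200 bins had the higher 5hmC level in cortex and in cerebellum. In the 55 gene-free bins 5hmC was 0.139 ± 0.00855 in cortex and 0.0451 ± 0.00128 in cerebellum. In the 34 bins with at least 50% cover it was 0.177 ± 0.0102 in cortex and 0.0572 ± 0.00124 in cerebellum. The rule holds the ratio of all 200 bins to a narrow range, so nothing is read from the ratios of these classes. The 6 bins with at least 90% cover lay in Pcdh15, Lingo2, Gpc5, Ptprd, Cntn5 and Sgcd. The bin wholly inside Ptprd, a receptor tyrosine phosphatase that organises synapses, had a ratio of 0.338, with 5hmC of 0.202, 0.221 and 0.199 in cortex, 0.129, 0.136 and 0.133 in olfactory bulb, and 0.0567, 0.0570 and 0.0588 in cerebellum.

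The 200 bins were often neighbours. They formed 139 runs, and 108 of them touched another of the 200. There were 92 single bins, 38 runs of 2, 6 runs of 3, 1 run of 4 and 2 runs of 5. The run of 4, chr11:12000001-16000000, held Cobl, an actin nucleator, and Pom121l12, and 35.8% of the imprinted gene Grb10, whose midpoint lies outside it, and genes covered only 6.70% of the run. One run of 5, chr12:93000001-98000000, held a single protein-coding gene, Flrt2, which encodes a guidance and adhesion protein, and genes covered 1.86%. In that run 5hmC was 0.154 ± 0.00993 for cortex, 0.131 ± 0.00447 for olfactory bulb and 0.0488 ± 0.000805 for cerebellum. The other run of 5, chr18:85000001-90000000, held Dok6, Socs6, Rttn, Neto1, Cd226, Cbln2 and Gm5096. Eligible bins directly beside one of the 200 had a median ratio of 0.508, bins at a distance of 2 had 0.580, and those more than 5 bins away had 0.652, where the step from the 200 to their neighbours is set by the rule. By chromosome the share of eligible bins taken ran from 1.87% on chromosome 9 (2 of 107) to 17.5% on chromosome 12 (18 of 103). The last 10 Mb of the chromosomes held 9.5% of the 200 and 8.63% of the other eligible bins.

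5mC, which the choice did not use, was compared between the tissues next, to ask what happened to the methylated form of cytosine where 5hmC was low. Over the 1991 bins of 100 kb inside the 200 bins the mean 5mC level was 0.724, 0.723 and 0.700 in the cortex libraries, 0.748 and 0.748 in the olfactory bulb libraries, and 0.800 and 0.784 in the cerebellum libraries. The tissues did not overlap. Cerebellum was above cortex by 0.0762 ± 0.0174 and above olfactory bulb by 0.0437 ± 0.0108, and olfactory bulb was above cortex by 0.0326 ± 0.0136 (errors from the SDs between libraries). With each library centred on its own median these differences were 0.0198, 0.0193 and 0.000469. Without centring, in the other eligible bins the differences were 0.0618 ± 0.0190, 0.0311 ± 0.0124 and 0.0307 ± 0.0155. The 200 bins were the more methylated in each tissue, with a surplus over the other eligible bins of 0.0547 ± 0.00293 for cortex, 0.0565 ± 0.00378 for olfactory bulb and 0.0691 ± 0.000883 for cerebellum. That surplus was no longer larger in cerebellum when medians over bins were compared (0.0478, 0.0506 and 0.0505). Gene content differed too: 1293 of the 1991 bins of 100 kb held no protein-coding gene, against 5620 of 18976 in the other eligible bins. Among these gene-free bins 5mC was 0.733, 0.765 and 0.799 in cortex, olfactory bulb and cerebellum, against 0.719, 0.751 and 0.784. Among bins wholly inside a gene it was 0.686, 0.722 and 0.796, against 0.658, 0.690 and 0.730.

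Each 100 kb bin was tested with limma on log2(level/(1 − level)) across all 25664 bins, with a Benjamini-Hochberg adjusted p under 0.05 as a call. Inside the 200 bins 1894 of 1991 bins of 100 kb (95.1%) rose from cortex to cerebellum, where the background over all bins tested was 71.9%, and 3 fell (0.151%, background 4.44%). Against olfactory bulb 1013 (50.9%) were higher in cerebellum, with a background of 35.3%, and 10 (0.502%) were lower, with a background of 7.69%. From cortex to olfactory bulb 916 (46.0%) rose, with a background of 37.6%, and 39 (1.96%) fell, with a background of 2.18%. The median change from cortex to cerebellum was 0.57 on the log2 scale inside the 200 bins and 0.43 over all bins. In the 200 bins with the highest ratios 981 of 1991 (49.3%) rose and 278 (14.0%) fell.

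Most of the genome moved the same way, and the share of calls rests on how the libraries are aligned. The cerebellum libraries had medians 0.41 above those of cortex and 0.18 above those of olfactory bulb on the log2 scale. With each library centred on its own median, 42.3% of the 100 kb bins inside the 200 were called higher in cerebellum than in cortex and 3.87% lower, against 25.7% and 24.3% of all bins. Against olfactory bulb the centred shares were 34.2% higher and 4.32% lower, where all bins gave 22.1% and 21.3%. From cortex to olfactory bulb they were 11.2% and 8.89%, where all bins gave 8.81% and 9.90%. The excess of higher over lower calls in cerebellum was therefore still there relative to the genome, and that in olfactory bulb was much smaller.

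The gain was spread over the bins. In 148 of the 200 bins every tested 100 kb bin rose from cortex to cerebellum, in 188 at least 8 did, and in 2 fewer than 5 did. These were 74.0%, 94.0% and 1.00% of the bins, where the other 1901 eligible bins gave 31.4%, 65.0% and 9.57%, and the background over all 2413 autosomal bins was 33.8% for every bin and 63.5% for at least 8. One of the 2 bins with few rises was the end of chromosome 12, which held only 1 bin of 100 kb. Averaged over 1 Mb, every cerebellum library was above every cortex library in 200 of 200 bins (background 89.5%) and above every olfactory bulb library in 194 (background 74.1%). At the edges of the runs 5mC changed gradually. In cortex it was 0.684 ± 0.0133 in the 100 kb bins centred 950 kb outside an edge, 0.709 ± 0.0142 at 50 kb outside and 0.715 ± 0.0123 at 150 kb inside. In cerebellum it was 0.754 ± 0.0118, 0.781 ± 0.0117 and 0.791 ± 0.0109 at the same places. The difference between these tissues was 0.0701 ± 0.0177, 0.0723 ± 0.0184 and 0.0752 ± 0.0164, with errors between libraries. At the 10 positions inside the edge it was 0.0752 to 0.0795, above all 10 positions outside it, which had 0.0663 to 0.0723. Taken within each library, the mean of the 10 positions inside minus that of the 10 outside was 0.0225, 0.0211 and 0.0233 in cortex, 0.0229 and 0.0250 in olfactory bulb, and 0.0295 and 0.0300 in cerebellum. The cerebellum libraries were above the others in this step.

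**Figure D3:**
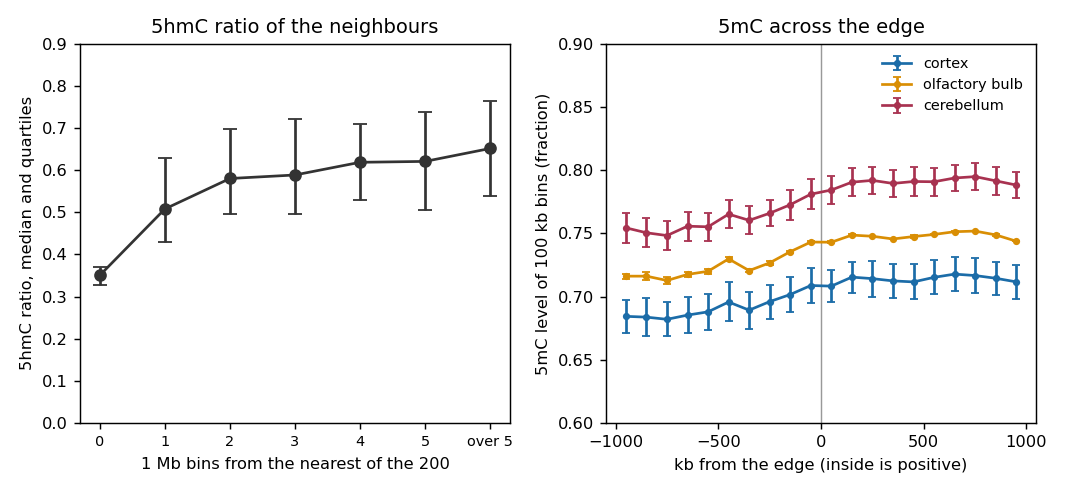
Left: median and quartiles of the 5hmC ratio of eligible bins by their distance, in 1 Mb bins, from the nearest of the 200. Right: mean 5mC level of 100 kb bins by distance in kb from the edge of a run, with bars for the SD between libraries; the step of the ratio next to the 200 bins is set by the rule that chose them, and 5mC falls off gradually outside the edge in all 3 tissues.

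In the 200 bins the mean sum of 5hmC and 5mC was lower in cerebellum, which the rule favours. The sum, the 5hmC lost and the share of 5hmC all contain the cerebellum 5hmC level that the rule chose to be low. In the 200 bins the 5mC gained from cortex to cerebellum amounted to 73.3% of the 5hmC lost, and from olfactory bulb to cerebellum to 47.8%, both from levels that were not centred. Cortex had a sum of 0.871 ± 0.0165, olfactory bulb 0.891 ± 0.00447 and cerebellum 0.843 ± 0.0110. It differed between cerebellum and cortex by -0.0278 ± 0.0198, and between cerebellum and olfactory bulb by -0.0475 ± 0.0119. In the other eligible bins these differences were -0.00855 ± 0.0218 and -0.0209 ± 0.0134. The share of 5hmC in the sum was 17.9% for cortex, 16.0% for olfactory bulb and 6.12% for cerebellum, where the other eligible bins had 21.7%, 19.2% and 13.5%. The marks were read in separate libraries and at bins of different size, so a sum is of means and not of the same molecules.

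Across the 200 bins the gain of 5mC from cortex to cerebellum was larger where genes covered more of the bin (r = 0.489, rho = 0.459) and where cortex had more 5hmC (r = 0.663, rho = 0.686). The cortex 5hmC levels are among those that chose the bins. The bins share all their libraries, and these values are descriptions over 200 bins.

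The gain of 5mC was largest inside genes. Of the 1991 bins of 100 kb, 320 lay wholly in a protein-coding gene, 378 in part and 1293 not at all. The wholly genic ones had 0.686 ± 0.0132 for cortex, 0.722 ± 0.00124 for olfactory bulb and 0.796 ± 0.0107 for cerebellum. The gene-free ones had 0.733 ± 0.0133, 0.765 ± 0.000614 and 0.799 ± 0.0107. From cortex to cerebellum the genic bins gained 0.110 ± 0.0170 and the gene-free bins 0.0666 ± 0.0171. In the other eligible bins the genic ones gained 0.0716 ± 0.0179 and the gene-free ones 0.0647 ± 0.0187. The gain of the gene-free bins was thus nearly the same inside and outside the 200. Against olfactory bulb, 248 of the 320 genic bins (77.5%) and 554 of the 1293 gene-free bins (42.8%) were called higher in cerebellum. In the other eligible bins 55.2% of the genic and 43.4% of the gene-free ones were, so the gene-free share was not larger inside the 200. Of the 378 partly genic bins 211 (55.8%) were called higher, against 34.0% in the other eligible bins.

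5mC was lower inside genes than outside them in cortex and olfactory bulb, and hardly so in cerebellum. Wholly genic minus gene-free 5mC was -0.0486, -0.0460 and -0.0472 in the cortex libraries, -0.0419 and -0.0445 in the olfactory bulb libraries, and -0.00364 and -0.00366 in the cerebellum libraries. The cerebellum libraries were separate from all others. In the other eligible bins cerebellum had a dip like the rest, at -0.0539 ± 0.000657, next to -0.0608 ± 0.00233 in cortex and -0.0612 ± 0.00286 in olfactory bulb. These differences are taken within a library, so an offset shared by all bins of a library leaves them unchanged.

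**Figure D4:**
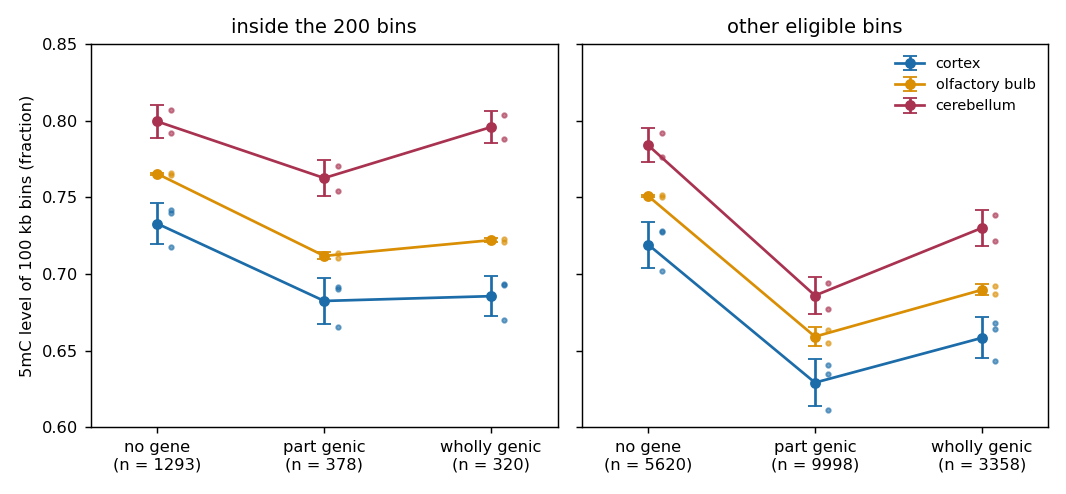
Mean 5mC level (fraction, axis from 0.6) of 100 kb bins with no protein-coding gene, partly in genes and wholly in a gene, inside the 200 bins (left) and in the other eligible bins (right); bars are the SD between libraries and small dots single libraries. Inside the 200 bins the cerebellum line returns from the middle class to 0.796 in genic bins, next to 0.799 in gene-free bins, while cortex stays at 0.686 against 0.733.

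The 10 longest genes with at least 50% of their length in the 200 bins were Pcdh15, Gpc5, Agbl4, Lingo2, Cntn5, Nkain2, Prkg1, Cdh12, Sgcz and Sgcd. They ranged from 1093 to 1550 kb. Every 100 kb bin inside each of these genes was called higher in cerebellum than in cortex, in the parts outside the 200 bins too. So were 319 of all 320 wholly genic bins inside the 200 (99.7%). In the other eligible bins 79.0% of the wholly genic bins were, and 71.9% of all bins tested. The genes parted in olfactory bulb. Prkg1, the cGMP-dependent protein kinase, had 5mC of 0.687 ± 0.0110 in cortex and 0.688 ± 0.00109 in olfactory bulb against 0.779 ± 0.00951 in cerebellum, and 11 of its 11 bins were higher in cerebellum than in olfactory bulb. Agbl4, a carboxypeptidase that acts on tubulin, had 0.711 ± 0.0146 in cortex but 0.784 ± 0.000530 in olfactory bulb and 0.792 ± 0.0117 in cerebellum, and only 2 of its 12 bins were higher in cerebellum than in olfactory bulb. Lingo2 was like Agbl4, with 0.671 ± 0.0154, 0.764 ± 0.00405 and 0.795 ± 0.0104, and 3 of 11 bins. Pcdh15, a cadherin of the tip links of hair cells, was between them in olfactory bulb, with 0.696 ± 0.0110, 0.725 ± 0.000325 and 0.800 ± 0.0113, and all 15 of its bins were higher in cerebellum than in olfactory bulb.

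**Figure D5:**
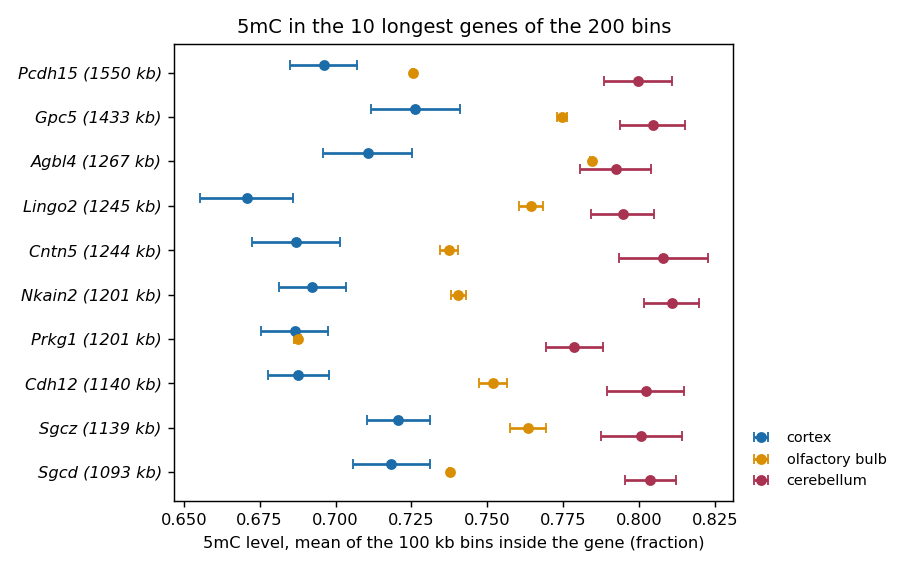
Mean 5mC level (fraction, axis from about 0.65) of the 100 kb bins inside each of the 10 longest genes of the 200 bins, ordered by length, with points for the tissue means and bars for the SD between libraries. Cerebellum is rightmost in all 10 genes, while olfactory bulb runs from beside cortex (Prkg1, 0.688 against 0.687) to beside cerebellum (Agbl4, 0.784 against 0.792).

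Adhesion and guidance genes of neurons gave the largest shares among the gene lists. Of 20 eligible cadherins and nonclustered protocadherins, 6 lay in the 200 bins (30.0%): Pcdh10, Cdh11, Pcdh15, Pcdh17, Pcdh20 and Cdh12. Of 26 adhesion genes of the synapse there were 4 (15.4%), which were Lrrtm4, Cntn3, Tenm3 and Cntn5, and of 28 axon guidance genes there were 4 (14.3%), which were Sema3c, Epha5, Epha6 and Robo2. The share of all protein-coding genes was 1.99%, but that of genes longer than 500 kb was 15.5%, and many of these genes are long. Foxp2 and Rorb, transcription factor genes from the list of cortical excitatory neurons, lay there, and Foxp2 was also the 1 of 17 Purkinje cell genes. The glutamate receptors gave 2 of 25 (Grm8 and Grm5), the GABA-A receptor subunits 1 of 12 (Gabrg1), the potassium channels 4 of 91 (Kcnt2, Kcna4, Kcnc2 and Kcnj2), the olfactory bulb interneuron genes 1 of 17 (Meis2), the solute carriers 6 of 344, the zinc finger genes 2 of 248 and the vomeronasal receptors 1 of 43. None of the 23 granule neuron genes, 12 astrocyte genes, 13 oligodendrocyte genes, 11 microglia and endothelial genes or 12 enzymes of DNA methylation and oxidation lay there. The same was true of 305 olfactory receptors, 113 keratin genes, 39 Hox genes, 48 serpins, 65 cytochrome P450 genes and 20 defensins. No clustered protocadherin was in an eligible bin.

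Each list gene long enough to hold a whole 100 kb bin showed more 5mC in cerebellum. Epha5 and Epha6 encode ephrin receptors that guide axons. Epha5, with the largest gain among these genes, had 5mC of 0.642, 0.642 and 0.595 in cortex, 0.632 and 0.635 in olfactory bulb, and 0.823 and 0.818 in cerebellum, and 3 of 3 bins were called higher in cerebellum than in either tissue. Epha6 had 0.691 ± 0.00814 in cortex, 0.688 ± 0.00384 in olfactory bulb, but 0.820 ± 0.0110 in cerebellum, with 9 of 9 bins higher against both. Robo2 had less 5mC in olfactory bulb than in cortex. Its levels were 0.667, 0.671 and 0.661 in cortex, 0.620 and 0.606 in olfactory bulb, and 0.801 and 0.785 in cerebellum, and 4 of its 5 bins fell from cortex to olfactory bulb. In Tenm3 only 1 of 5 bins did, and its libraries overlapped, with 0.664, 0.692 and 0.651 in cortex and 0.656 and 0.646 in olfactory bulb. Cntn3, an immunoglobulin adhesion molecule, was the reverse, with 0.663 ± 0.0110 for cortex, 0.761 ± 0.00229 for olfactory bulb and 0.808 ± 0.0112 for cerebellum. Grm5, a postsynaptic metabotropic receptor, had 0.645 ± 0.0150, 0.688 ± 0.000496 and 0.779 ± 0.0115, and the 1 bin inside Rorb, which marks layer IV neurons, had 0.639 ± 0.0122, 0.699 ± 0.00627 and 0.795 ± 0.00532.

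The single 100 kb bins with the largest gain from cortex to cerebellum lay in genes. In chr2:45000001-45100000, wholly inside Zeb2, a zinc finger transcription factor of neural development, 5mC was 0.358, 0.321 and 0.345 in cortex, 0.252 and 0.237 in olfactory bulb, and 0.742 and 0.708 in cerebellum. This bin was low in 5mC in cortex and olfactory bulb and high in cerebellum, with a change of 2.35 ± 0.12 (SE) on the log2 scale from cortex (limma adjusted p = 5.93e-70). In chr12:95700001-95800000, mostly Flrt2, cortex had 0.534, 0.505 and 0.510, olfactory bulb 0.700 and 0.697, and cerebellum 0.796 and 0.772. In chr8:102700001-102800000, mostly Cdh11, cortex had 0.439, 0.438 and 0.417, olfactory bulb 0.651 and 0.602, and cerebellum 0.684 and 0.680. Cortex was lowest at Flrt2 and Cdh11 and olfactory bulb lay between, and cerebellum was also above olfactory bulb (limma adjusted p = 6.10e-06 and 0.0197). On the log2 scale the changes from olfactory bulb were 0.65 at Flrt2 and 0.35 at Cdh11, from levels that were not centred. The cerebellum library medians lay 0.18 above those of olfactory bulb on that scale. Olfactory bulb and cortex stood together at Lrrc7, a postsynaptic density protein, where chr3:158300001-158400000 had 0.576 ± 0.00748 in cortex, 0.590 ± 0.0124 in olfactory bulb, but 0.806 ± 0.0112 in cerebellum. They also did at Epha5, where chr5:84300001-84400000 had 0.611 ± 0.0315, 0.604 ± 0.000583 and 0.835 ± 0.00144.

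Meis2, a homeobox gene of olfactory bulb interneurons, had the lowest olfactory bulb 5mC among these list genes. The bin of 100 kb inside it had 0.642, 0.621 and 0.618 in cortex, 0.303 and 0.340 in olfactory bulb, and 0.786 and 0.778 in cerebellum, and it was called lower in olfactory bulb than in cortex and higher in cerebellum than in either. The 1 Mb bin at its midpoint had 5hmC of 0.239 ± 0.00704 in olfactory bulb, 0.194 ± 0.0106 in cortex and 0.0729 ± 0.00161 in cerebellum.

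Few bins went the other way. Of the 3 bins of 100 kb that fell from cortex to cerebellum, 2 had cerebellum libraries below all cortex libraries, and they were neighbours without a protein-coding gene at chr13:68100001-68300000. The first had 0.772, 0.780 and 0.772 in cortex and 0.750 and 0.728 in cerebellum, a change of -0.28 ± 0.12 (SE) with a limma adjusted p of 0.0236. The second had 0.781, 0.791 and 0.772 against 0.758 and 0.739, a change of -0.26 ± 0.12 with a limma adjusted p of 0.0341. Both falls are small beside the gains above.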

How the data were processed

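TAB-seq and oxBS-seq libraries of cortex, olfactory bulb and cerebellum were used, grouped by the tissue in their labels; 6 RNA-seq samples were not analysed here. The authors mapped reads uniquely to mm10 with Bismark (version not given in the sources used here), called modified CpG sites with a binomial model, and deposited the level per bin as a fraction, of 5hmC in bins of 1 Mb and of 5mC in bins of 100 kb. How sites were combined per bin is not given in the sources used here, and coverage is unknown. Bins listed at 0 in every library (60 for 5hmC), or at 0 or 1 in any library (663 for 5mC), were left out, which left 25664 bins of 5mC.

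The members and gene lists were chosen with earlier results of these data known. The logit of 5mC to base 2, log2(level/(1 − level)), was fitted in limma 3.58.1 (R 4.3.3) with all 3 tissues in 1 fit, with p-values adjusted over all 25664 bins. The prior degrees of freedom were 905 against 4 residual, so all bins have nearly the same standard error, and a library-wide shift is not modelled. The limma fit was tested on simulated data with 200 of 25664 bins changed in cerebellum. Changes of 0.2, 0.5 and 1 on the log2 scale were found in 0%, 74% and 100% of them. The simulation held no library-wide shift, so it could not show the effect of one. Protein-coding genes of GENCODE M21 were placed by their midpoint, and GC, CpG and masked bases were read from GRCm38. Genes named were the 10 longest with at least 50% of their length in the bins, the list genes, the genes of the 10 lowest-ratio bins, of runs of at least 4 and of the edge of the ranking, and the genes of the 5 largest rises and falls at 100 kb without overlap of libraries. Genes of bins with at least 90% cover were added after their values were seen. Errors of differences combine the SDs of both tissues. Alternatives covered the choice of bins, the scale, centring, left-out libraries and replicate numbers. Whether same-numbered libraries form pairs was checked by the correlation of their deviations from the tissue means. In oxBS-seq they did not deviate together (r from -0.0906 to 0.0158 over 6 pairs). In TAB-seq those of cortex and olfactory bulb did (r = 0.128, 0.297 and 0.216), while none with cerebellum was over 0.1. The numbers come from the titles, and pairs of cortex and olfactory bulb were counted as an alternative added after seeing the data. Python 3.11.15 with pandas 2.3.3 was used. Some items are not reported here.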

Additional observations from a re-analysis of the deposited data

How the results depend on the processing

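Over 210 values recomputed under an alternative for 25 results, 162 stayed within the spread or within 1.5 times, and 48 moved. No signed difference reversed, but shares, counts and gene statistics have no sign to reverse. For the 5hmC differences with cerebellum the sign is favoured by the rule. Between 193 and 199 of the 200 bins were kept when a TAB-seq library was left out, and 147 or more under each other rule except ranking by the difference, which kept 87. With library medians centred, the 5mC differences over the bins were 0.0198 for cerebellum minus cortex, 0.0193 for cerebellum minus olfactory bulb and 0.000469 for olfactory bulb minus cortex. The centred shares called were 42.3% higher and 3.87% lower for cerebellum against cortex, 4.32% lower for cerebellum against olfactory bulb, and 11.2% higher and 8.89% lower for olfactory bulb against cortex. Backgrounds below are over all bins under the same setting. On the fraction scale 0.0502% were lower in cerebellum than in cortex (background 4.27%) and 0.251% than in olfactory bulb (background 6.81%). With all bins kept and levels limited, 0.201% were lower in cerebellum than in olfactory bulb (background 5.51%). From cortex to olfactory bulb 27.4% were then higher (background 21.6%) and 1.21% lower (background 1.53%). With 1 Mb averages none (0%) was lower in cerebellum than in cortex (background 3.02%) or in olfactory bulb (background 7.36%). Of these averages 82.0% were higher in cerebellum than in olfactory bulb (background 49.8%). From cortex to olfactory bulb 74.5% were higher (background 60.8%). With the 100 or 400 lowest ratios 0.303% and 0.0752% were lower in cerebellum than in cortex (background 4.44%). Such counts of lower bins rest on very few bins.

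Leaving out 1 oxBS-seq library in turn gave 80.1% to 94.7% higher and 0% to 0.251% lower for cerebellum against cortex, 25.5% to 60.3% higher and 0.0502% to 0.603% lower for cerebellum against olfactory bulb, and 15.4% to 44.5% higher and 0.804% to 2.51% lower for olfactory bulb against cortex. The comparisons with olfactory bulb fell most without cerebellum replicate 1 (25.5%) and without either olfactory bulb replicate (33.3% and 31.3%), where a tissue is left with 1 library that is assumed to vary like the others. For olfactory bulb against cortex the share was 15.4% and 17.1% without the olfactory bulb replicates. With the replicate number of the titles as a block, 93.3% were higher (background 68.2%) and 0.251% lower (background 6.26%) in cerebellum than in cortex. This pairing changed no other 5mC share by over 1.5 times. With the numbers in the deposited library names the shares higher were 95.8%, 45.8% and 60.9% for the same 3 comparisons. Their backgrounds were 74.8%, 32.6% and 50.2%. For 5hmC, pairing cortex and olfactory bulb by number moved the bins with more in olfactory bulb from 13 to 30.

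The surplus of 5mC over the other eligible bins was 0.0478, 0.0506 and 0.0505 in cortex, olfactory bulb and cerebellum as a difference of medians, so cerebellum no longer stood above the others, and 0.0670 in cerebellum with chromosomes weighted alike. Counting genes of all biotypes gave a median cover of 25.0%, a mean of 8.97 genes per bin and a median gene length of 1.46 kb, against 1.75 genes and 32.0 kb for protein-coding genes. The 100 lowest ratios had a median cover of 5.66% and a median gene length of 55.0 kb. Depth could not be judged, since the files give levels only.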

Other observations

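Chromosome X and the bins under the minimum level lay outside the ranking. Of 168 bins of chromosome X with a level above 0, only 14 reached 0.10 in both cortex and olfactory bulb, and none of those 14 had a ratio as low as the 200; the median ratio of the 168 was 0.542, and 11 of them, all under the minimum level, were at or below the highest ratio of the 200. Of 312 autosomal bins above 0 but under the minimum level, 52 were at or below it, with a median ratio of 0.530 over the 312. When list genes were placed in every bin they overlap rather than by their midpoint, 7 more list genes reached the 200 bins. They were Gabra2 and Gabrg3, subunits of the GABA-A receptor, the glutamate receptor gene Grm7, the potassium channel genes Kcnh5 and Kcnj16, the neurexin gene Nrxn3 (1612 kb) and the guidance gene Slit2.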
